A study of Homo sapiens with 6 samples.

Results

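The 8 core genes of the Hedgehog signalling pathway, SHH, IHH, DHH, PTCH1, SMO, GLI1, GLI2 and GLI3, were examined in a reduced representation bisulfite sequencing study of M07e cells. M07e is a human acute megakaryoblastic leukemia line that carries the CBFA2T3-GLIS2 fusion named in the study's title and depends on GM-CSF in culture. By their labels, 3 libraries are of wild-type M07e cells (control) and 3 of M07e cells with a CRISPR knockout of DNMT3B, an enzyme that places new methyl groups on CpG cytosines; both groups grew in the same medium. No label says whether the libraries are separate cultures or whether the knockout is 1 clone. A region of the authors' deposited table was taken as belonging to a gene when it overlapped the gene's RefSeq span or lay within 10 kb of it. This gave 47 of the 35130 regions: 9 at SHH, 4 at IHH, 3 at DHH, 8 at PTCH1, 2 at SMO, 1 at GLI1, 18 at GLI2 and 2 at GLI3. Of these, 41 overlapped the gene itself and 6 lay outside it.

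Hedgehog ligands are secreted proteins that bind the receptor Patched. Without ligand, Patched holds back the membrane protein Smoothened; once a ligand is bound, Smoothened is released and the GLI zinc finger factors act on their target genes, PTCH1 and GLI1 among them. GLI1 acts mainly as an activator, GLI3 mainly as a repressor and GLI2 as the main activator that responds to the signal. The pathway patterns many embryonic tissues, and GLIS2, a partner in the fusion, belongs to a family of zinc finger proteins related to the GLI factors.

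All levels, differences, p-values and q-values below come from the authors' deposited table. It gives 1 mean methylation level for each group in a region, so neither depth nor the spread between libraries is known and no test between libraries could be made. The column M07e_WT was read as the control. The other column, M07e_3883, carries a name used in no label and was read as the knockout because the labels hold no further genotype. Every stated direction depends on it, and methylation values cannot check the knockout itself. A region was called where the authors' q was under 0.01 and the difference at least 25 percentage points. Many of the authors' p-values are below 0.1, the smallest that a two-sided exact rank test of 3 libraries against 3 can give, so their points are not whole libraries. How far the q-values reflect the spread between libraries is not known.

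The table's coordinates and its count of sites could be checked against RefSeq promoter sequences (GRCh38.p14, the build hg38 of the submitters' processing notes). In all 2484 regions that lie inside a promoter window, the first and last base are a cytosine of a CpG on either strand when 2 is added to the file's start and 1 to its stop. Read as a plain half-open interval, this was so in 959. Coordinates are therefore printed with that shift, 1-based. In 1883 of the 2484 regions (75.8%) the column headed CpGs exceeds the number of CG dinucleotides, and in none does it exceed the cytosines of both strands. A "site" below is thus a cytosine of a given strand, and a CpG can count as a pair of sites.

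Promoters of SMO, DHH and the coreceptor gene CDON are printed first, each with a region at an annotated start or 4 bases from it. They show which bases the methylation values refer to. Other starts that met a region, such as that of EVC2, are not printed. The last sequence shows the PTCH1 promoter that holds a GLI consensus. Each sequence is 5′ to 3′ on the gene's strand and begins 250 bases before an annotated start. The first 3 have the measured region in capitals, and the PTCH1 window has the motif in capitals.

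SMO, chr7:129188383-129188632, plus strand: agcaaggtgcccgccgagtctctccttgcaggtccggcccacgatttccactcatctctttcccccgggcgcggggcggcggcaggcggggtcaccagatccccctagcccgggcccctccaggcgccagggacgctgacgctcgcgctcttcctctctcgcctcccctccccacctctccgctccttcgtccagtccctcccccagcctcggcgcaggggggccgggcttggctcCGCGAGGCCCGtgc

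DHH, chr12:49094802-49095051, minus strand: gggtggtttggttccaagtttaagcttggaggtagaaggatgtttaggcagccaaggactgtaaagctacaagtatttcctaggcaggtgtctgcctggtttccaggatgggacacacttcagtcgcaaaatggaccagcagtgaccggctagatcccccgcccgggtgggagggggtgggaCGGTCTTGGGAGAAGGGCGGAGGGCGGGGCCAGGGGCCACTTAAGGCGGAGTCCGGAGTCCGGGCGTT

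CDON, chr11:126062430-126062691, minus strand: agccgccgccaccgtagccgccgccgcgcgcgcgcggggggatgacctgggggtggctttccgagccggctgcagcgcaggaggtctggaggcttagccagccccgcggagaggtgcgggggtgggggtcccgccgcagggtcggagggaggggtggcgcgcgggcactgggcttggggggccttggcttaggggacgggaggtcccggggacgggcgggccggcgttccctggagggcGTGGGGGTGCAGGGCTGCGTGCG

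PTCH1, chr9:95509267-95509516, minus strand: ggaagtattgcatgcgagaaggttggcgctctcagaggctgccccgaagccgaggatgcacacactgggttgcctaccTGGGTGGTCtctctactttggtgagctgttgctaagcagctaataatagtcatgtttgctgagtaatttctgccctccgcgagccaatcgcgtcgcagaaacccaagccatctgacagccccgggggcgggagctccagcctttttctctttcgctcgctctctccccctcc

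The SMO region is 11 bases long and ends 4 bases before the start. It holds 3 CG dinucleotides, and its 6 sites are their cytosines on both strands. The printed DHH sequence ends at the base before the start, and the capitals are the 68 upstream bases of a region of 23 sites that runs on into the gene. The CDON sequence runs 12 bases past an inner annotated start, and its region of 23 bases has 5 sites. The GLI consensus GACCACCCA, searched on both strands, lies in the PTCH1 window as TGGGTGGTC, 164 bases before that start. This exact motif occurs in 83 of 35116 RefSeq promoter windows of 300 bases (0.236%), in 1 of the 11 windows of the 6 Hedgehog genes found in the promoter table (all but GLI1 and GLI3), and in 0 of 48 windows of 28 other pathway genes. A match to these letters is a description of the sequence and not evidence of binding.

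The 11 windows held between 7 and 37 CG dinucleotides, with a median of 19 against 14 over all windows. The IHH promoter was the richest, with 37. The SHH promoter and the inner GLI2 promoter were the poorest, with 7 each. The MspI site CCGG, the sequence cut in this method, was in 10 of the 11 windows against 63.1% of all windows. No region of the table lay inside the SHH, IHH, GLI2 or PTCH1 windows, so among the 6 genes with a window, DHH and SMO had a region in it.

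In the authors' deposited table, 6 of the 47 Hedgehog regions were called (12.8%), where 6.74% of all regions were. Of the 6, 4 were higher in the knockout (4.57% of all regions) and 2 lower (2.17% of all regions). The calls lay at SHH, DHH and PTCH1, 1 gain each, and at GLI2, with 1 gain and 2 losses. IHH, SMO, GLI1 and GLI3 held none. All 6 called regions were inside their genes. The share depends on the number of sites: among regions with at least 10 sites, 2 of 13 Hedgehog regions were called (15.4%) against 16% of all such regions. Without the 18 regions of GLI2, 3 of 29 were called (10.3%).

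The median difference over the 47 regions was 17.1 points higher in the knockout (quartiles -9.01 and 28.5), beside 17.4 over all regions (quartiles -3.71 and 31.9). Without regions that have a mean of exactly 0, it was 7.56 points, beside 3.34 over all regions. The median level was 10.9% in the control and 30.2% in the knockout, against 7.59% and 30.9% over the table. Of the 47, 29 were higher in the knockout (61.7%) and 18 lower, where 68.4% of all regions were higher. A control mean of exactly 0 was listed for 9 regions (19.1%, against 26.1% of all), and a knockout mean of 0 for 2. For such regions the deposited q says nothing of the difference: of 10807 regions with a mean of exactly 0 in either group, 10786 have a q of 1 and none is called, whatever the difference, while 803 would be called on the Mann-Whitney p adjusted over all regions. All 11 of these Hedgehog regions have a q of 1, and their lowest Mann-Whitney p is 0.0104, at PTCH1. In 16 regions (34.0%) the knockout mean lay between 25% and 33.3%, where 32% of all regions also lie. Of the 6 called regions, the one at PTCH1 has its knockout mean in that band; the part of this pile of values in any difference was not tested.

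**Figure D1:**
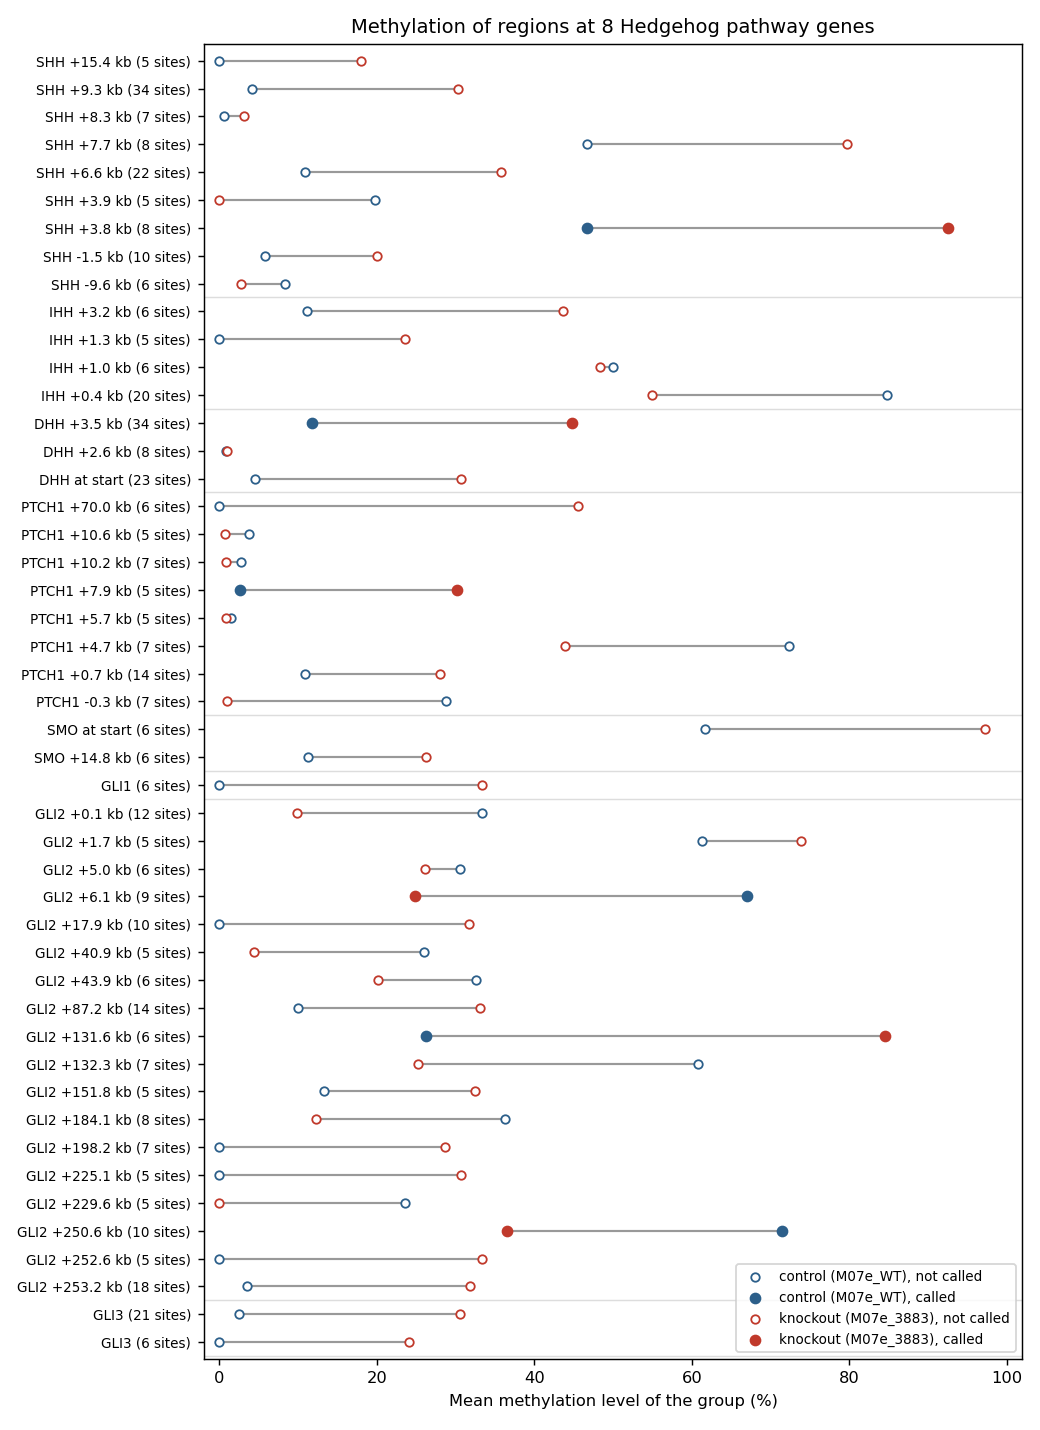
Mean methylation level (%, horizontal axis) of the control (blue) and knockout (red) groups in each of the 47 regions at the 8 Hedgehog genes, labelled by distance from the gene's outermost annotated start where the strand is known and by number of sites. Filled points mark the 6 called regions; the gain at SHH runs from 46.7% to 92.5%, and 9 regions start from a control level of exactly 0.

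Among the ligands, SHH rose at a short stretch inside the gene. Sonic hedgehog is the most widely used of the 3 ligands. The region at chr7:155808606-155808623, 18 bases with 8 sites, 3840 bases past the start, had a level of 46.7% in the control and 92.5% in the knockout. The difference of 45.8 points had a q of 4.61e-08, which ranks 84 among the 35130 regions. Of all Hedgehog regions it had the lowest q.

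The neighbouring SHH region, 56 bases away, differed in the opposite direction. At chr7:155808516-155808549, with 5 sites, the level was 19.8% in the control and 0% in the knockout, with a q of 1 and a Mann-Whitney p of 0.206. Over the whole table, 48.0% of 3090 pairs at most 100 bases apart and 44.2% of 6548 pairs at most 1000 bases apart had opposite signs. Where both regions differed by at least 15 points, the shares were 55.6% and 42.9%. Among Hedgehog regions, 4 of 12 pairs at most 1000 bases apart had opposite signs (33.3%).

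The remaining SHH regions were not called. The largest, 34 sites at chr7:155802916-155803157 in the gene, had 4.12% in the control and 30.3% in the knockout, with a q of 0.0125 just above the threshold. A region of 22 sites at chr7:155805665-155805837 had 10.9% and 35.7% (q = 0.127), and 8 sites at chr7:155804711-155804775 had 46.7% and 79.7% (q = 0.0868). The region nearest the start, 1526 bases upstream, had 5.83% and 20.0% (q = 0.507). Inside SHH itself lay 6 of the 9 regions, and 7 of the 9 were higher in the knockout.

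DHH, the ligand gene best known from testis and peripheral nerve, rose over a longer stretch. At chr12:49091099-49091328, 230 bases with 34 sites and 3473 bases past the start, the level was 11.8% in the control against 44.8% in the knockout (33.0 points, q = 0.000667). At the start itself, the region of 23 sites whose upstream bases are printed above, chr12:49094387-49094869, had 4.54% and 30.7%, with a q of 0.124. That difference was 26.2 points, over the size threshold, and the knockout mean lies in the band below 33.3%. Between them, 8 sites at chr12:49092149-49092194 had 0.817% and 0.975%. Methylation was thus near 0 in both groups between 2 DHH regions with higher knockout means, 1 of them called. The last 2 of these regions also overlap the antisense gene DHH-AS1.

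IHH, the ligand of growing cartilage and bone, had its most methylated region next to the start. At chr2:219060471-219060544, 20 sites lying 377 bases past the start had 84.8% in the control and 54.9% in the knockout, a difference of -29.9 points with a q of 0.0282. Its other regions had 50% and 48.4% (988 bases past the start), 0% and 23.6% (1301 bases) and 11.1% and 43.6% (3170 bases), with q between 0.759 and 1. IHH was the only ligand gene whose region nearest the start had a lower mean in the knockout.

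**Figure D2:**
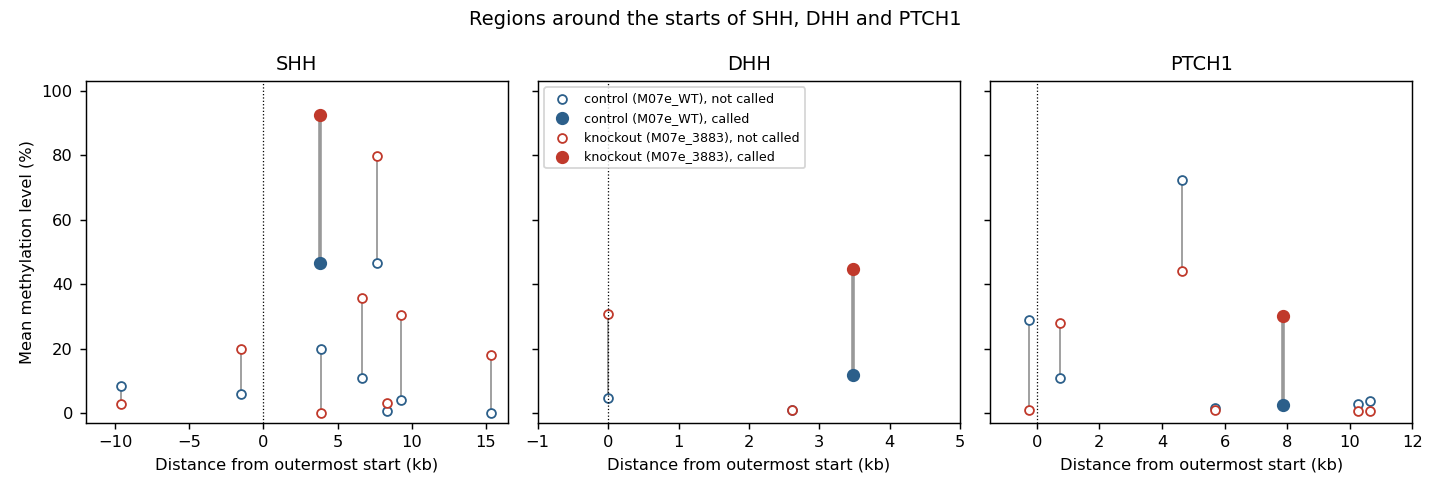
Mean methylation level (%) of control (blue) and knockout (red) against the distance in kb from the outermost annotated start (dotted line) of SHH, DHH and PTCH1; grey bars join the groups and filled points are called regions. The region 70.0 kb into PTCH1 is outside the axis; the SHH regions 56 bases apart, near 3.8 kb, differ in opposite directions.

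PTCH1 encodes the main Hedgehog receptor and is itself a classical target of the pathway. It has 5 annotated starts in the promoter table, spread over 9772 bases. Its called region, chr9:95509109-95509120, is 12 bases with 5 sites and lies 146 bases past the start whose upstream window holds the GLI consensus printed above, with 309 bases between motif and region. The level there was 2.62% in the control against 30.2% in the knockout (27.6 points, q = 0.00154). The size is close to the threshold of 25 points, the knockout mean lies in the band below 33.3%, and the call was lost at a q under 0.001.

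Around the outermost PTCH1 start, the regions on either side differed in opposite directions. Past the start by 742 bases, 14 sites at chr9:95516184-95516229 had 10.9% in the control and 28.0% in the knockout. This difference of 17.1 points had the lowest q of the gene, 2.39e-05, but missed the size threshold. Upstream by 259 bases, 7 sites at chr9:95517230-95517410 had 28.7% and 0.893% (q = 0.604).

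Other PTCH1 regions were almost free of methylation in both groups. The 3 regions at chr9:95506241-95506334, chr9:95506707-95506724 and chr9:95511127-95511275 had control levels of 3.70%, 2.71% and 1.44% and knockout levels of 0.701%, 0.767% and 0.875%. The nearest of them lie 2384 and 2006 bases from the called region, on its opposite sides. A region of 7 sites at chr9:95512253-95512319 had 72.3% and 44.0% (q = 0.319). Deep in the gene, 6 sites at chr9:95446944-95446982 were listed at 0% and 45.5%, with a q of 1 and a Mann-Whitney p of 0.0104 (0.0459 after Benjamini-Hochberg adjustment over all regions).

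SMO encodes Smoothened, the protein that passes the signal on from the receptor. The 6 sites printed above, chr7:129188619-129188629, had 61.6% in the control and 97.3% in the knockout, a difference of 35.6 points with a q of 0.0727, so this region was not called. It had the highest knockout level of all 47 regions. Inside the gene, 6 sites at chr7:129203401-129203503 had 11.2% and 26.2% (q = 1). With 3 CpGs behind the sites at the start, the measurement at the SMO promoter rests on few positions.

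Among the transcription factors, GLI2 held 18 of the 21 regions and all 3 calls. That is 16.7% of its regions and 14.3% of the 21, against 6.74% of all regions. Its calls were 2 losses and 1 gain. At chr2:120741995-120742090, 9 sites lying 6127 bases past the outermost start had 67.0% in the control against 24.8% in the knockout (q = 0.00121). Near the far end of the gene, 10 sites at chr2:120986480-120986582 had 71.4% and 36.5% (q = 0.00829). The gain was at chr2:120867456-120867480, where 6 sites had 26.2% and 84.5% (q = 0.000597). The loss near the far end was lost as a call when either deposited p was adjusted over all regions by Benjamini-Hochberg. The 3 called regions are spread over the gene, 6127, 131588 and 250612 bases past the start.

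The regions closest to the GLI2 gain and to the loss near the far end had means that differed in the opposite direction, none of them called. At the other loss, the closest region, 1002 bases away, differed in the same direction (30.6% in the control, 26.2% in the knockout, q = 0.759). A stretch of 7 sites at chr2:120868144-120868224, 663 bases from the gain, had 60.8% in the control against 25.2% in the knockout (q = 0.223). Following the loss near the far end, 5 sites at chr2:120988494-120988505 were listed at 0% and 33.3% (q = 1), and 18 sites at chr2:120989089-120989262 had 3.50% and 31.8% (q = 0.131). Just past the outermost start, 12 sites at chr2:120735978-120736015 had 33.3% and 9.91%. Their q was 0.00431, but the difference of -23.4 points missed the size threshold.

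Across GLI2, 9 regions were higher in the knockout and 9 lower. Its median difference was 4.11 points, against 18.0 over the 29 regions of the other 7 genes. In the control its median level was 26.1%, and in the knockout 29.6%. None of its regions was below 5% in both groups, while 5 of the 29 regions at the other genes were. Of its 18 knockout means 9 lie between 25% and 33.3%, and 4 of those 9 belong to regions listed at 0 in the control. In 1 region, 5 sites at chr2:120965491-120965580, the control had 23.6% and the knockout was listed at 0.

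**Figure D3:**
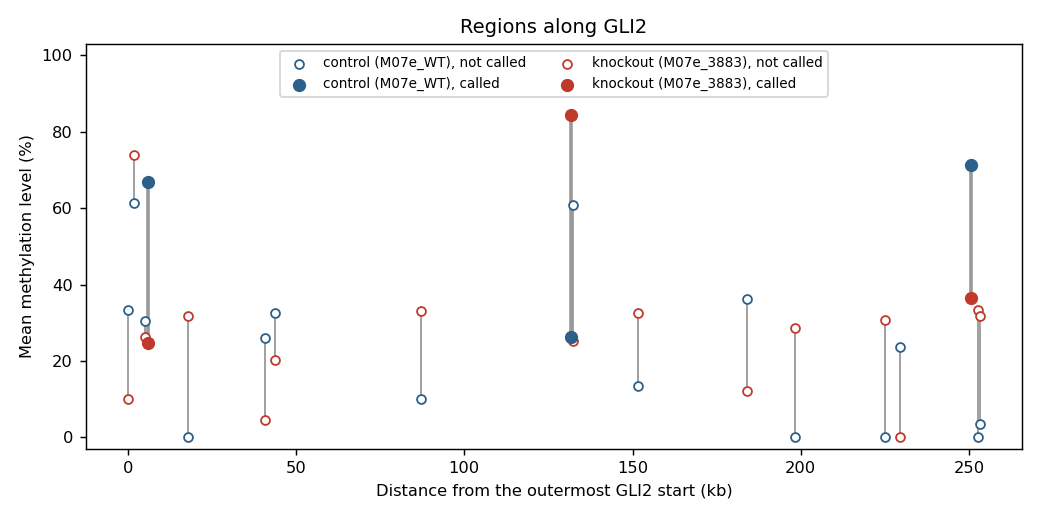
Mean methylation level (%) of control (blue) and knockout (red) in the 18 GLI2 regions against the distance in kb from the outermost start; grey bars join the groups and filled points are called. The called gain at 131.6 kb stands between called losses at 6.1 and 250.6 kb.

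GLI1, a target gene whose product amplifies the response, was represented by 1 region outside the gene, 3206 bases away. These 6 sites at chr12:57475474-57475533 overlap ARHGAP9 and were listed at 0% in the control against 33.3% in the knockout (q = 1). No listed region overlapped GLI1 itself, so its own methylation cannot be given. GLI3 had 2 regions, both inside the gene. At chr7:41965266-41966044, 21 sites had 2.49% and 30.6% (28.1 points, q = 0.0656). At chr7:42238113-42238131, 6 sites were listed at 0% and 24.1% (q = 1). All 3 regions of these genes were higher in the knockout and none was called. For the GLI1 region and the GLI3 region of 6 sites, both listed at 0% in the control, a lower knockout mean was not possible. Of all 9175 regions with a control mean of exactly 0, none was called.

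The size threshold alone did not decide the calls. Of the 47 Hedgehog regions, 23 differed by at least 25 points (48.9%), against 52.0% of all regions. Besides the 6 called, 17 Hedgehog regions differed by at least 25 points without a q under 0.01, 13 of them higher and 4 lower in the knockout, and 6 of the 17 had a control level of 0. In turn, 2 regions had a q under 0.01 with a smaller difference, those described at PTCH1 and GLI2, so that 8 of 47 were under the q threshold (17.0%, against 9.06% of all regions).

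**Figure D4:**
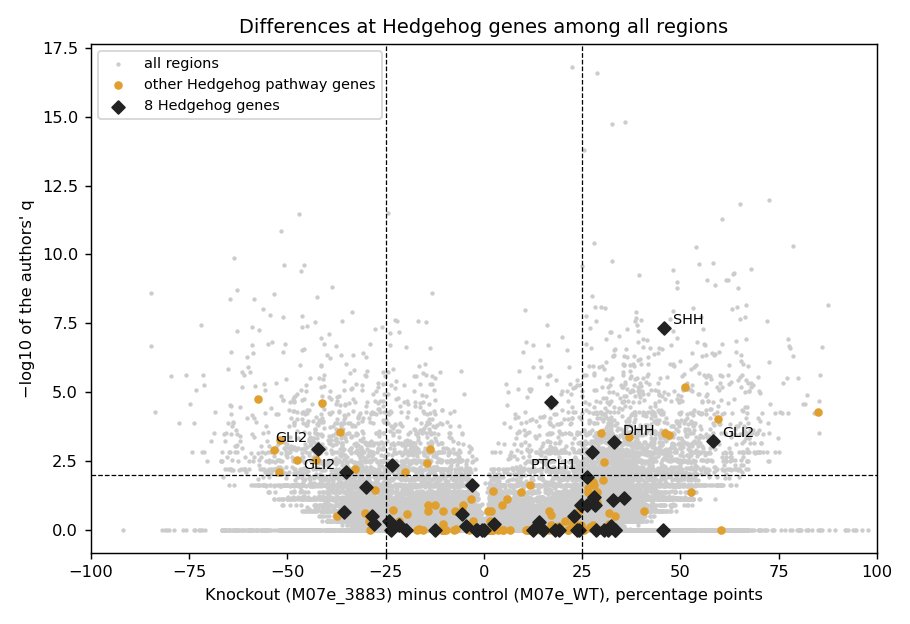
Difference between knockout and control (percentage points, horizontal axis) against −log10 of the authors' q for all regions (grey), the 8 Hedgehog genes (black diamonds) and other pathway genes (orange); dashed lines are the thresholds for a call. The 6 labelled diamonds are the called regions, and SHH has the lowest q among them, 4.61e-08.

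A list of 36 other genes of the pathway was counted in the same way. With regions shared by neighbours counted once, they had 127 regions, of which 17 were called (13.4%, against 6.74% of all regions), 8 higher (4.57% of all) and 9 lower (2.17% of all). With at least 10 sites, 10 of 37 were called (27.0%, against 16% of all). All but SPOP had a region, and 13 had a call, EVC and EVC2 through the same region. Counting only regions that overlap a gene of the list, 10 of 73 were called (13.7%, against 6.74% of all regions). The median difference over these regions was 3.64 points.

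The coreceptors, which help Patched bind ligand, had 2 called regions among 8 (25%, against 6.74% of all regions). Both were gains (4.57% of all regions). At GAS1, 11 sites in the gene at chr9:86945581-86945806 rose from 5.56% to 65.1% (q = 9.65e-05). At the CDON start printed above, the level rose from 13.4% to 43.9% (q = 0.00341), with 5 sites. BOC and LRP2 had none.

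Genes that carry the signal inside the cell had 4 called regions among 29 (13.8%, against 6.74% of all regions). EVC and EVC2, neighbouring genes for a complex at the base of the primary cilium, share a region of 15 sites at chr4:5708515-5708560 that fell from 47.9% to 6.88% (q = 2.41e-05). It spans an EVC2 start and lies 2641 bases from EVC. GPR161, a receptor that restrains the pathway in the cilium, fell from 59.7% to 23.1% at 12 sites, chr1:168136188-168136224 (q = 0.000284). The calls assigned to ULK3 (12.2% to 97.4%) and KIF3A (36.2% to 82.4%) lie 8032 and 9919 bases from those genes and inside CPLX3 and CCNI2. The inhibitor gene SUFU had 4 regions and KIF7 had 7, none called. At KIF7, 37 sites at chr15:89648276-89648395 were listed at 0% and 29.5%, where the q is 1 but the Mann-Whitney p is 1.77e-05.

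At HHIP, which encodes an antagonist that binds the ligands, 0 of 3 regions were called. Among the ligand processing genes HHAT, DISP1, DISP2 and SCUBE2, 0 of 6 were called, where 6.74% of all regions were. The kinases and turnover genes had 1 of 13 (7.69%, against 6.74% of all regions). This was a fall from 99.3% to 47.1% at CSNK1A1, 1267 bases from the gene and inside ARHGEF37. The GLI-related genes GLIS1, GLIS2 and GLIS3 had 0 of 18, where 6.74% of all regions were called. Of the 18, 2 had a q under 0.01 with a smaller difference (11.1%, against 9.06% of all regions). They lay at GLIS2 (15.3% to 1.53%, q = 0.0012) and GLIS1 (33.6% to 13.6%, q = 0.00824). Differences between these groups of genes were not tested.

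Genes known as Hedgehog targets in other tissues held 10 of the 17 calls, among 50 regions (20.0%, against 6.74% of all). Their regions had a median of 8 sites, against 6 over the table. FOXL1, a forkhead factor of gut mesenchyme, had both of its regions called lower, from 76.1% to 18.7% inside the gene (q = 1.83e-05) and from 56.6% to 23.9% at 1534 bases from it. NKX2-2, a homeobox factor of the ventral neural tube, also had 2 called losses (57.1% to 9.52% and 71.4% to 19.6%). FOXF1 had 2 called gains (3.06% to 32.9% over 40 sites and 15.6% to 62.7%) and 1 loss (79.3% to 26.0%). The gain over 40 sites and the loss lie 386 and 555 bases outside FOXF1. FOXA2 had a gain of 51.1 points over 21 sites (8.57% to 59.6%, q = 6.6e-06) and a loss (75.1% to 32.3%). The knockout means of 32.9% and 26.0% at FOXF1 and 32.3% at FOXA2 lie in the band described above. CCND1, a cell cycle gene, rose from 32.2% to 69.1% at 123 bases from the gene. BCL2, MYCN, SNAI1 and CCND2 had none. With the Kolmogorov-Smirnov p adjusted over all regions, 12 of the 17 pathway calls were left (9.45% of the 127 regions, against 4.12% of all). Those lost were at CDON (the start printed above), CSNK1A1, FOXL1 (outside the gene), FOXA2 (the loss) and NKX2-2 (57.1% to 9.52%). With the Mann-Whitney p so adjusted, the calls at CCND1 and at these regions of CSNK1A1, FOXL1, FOXA2 and NKX2-2 were lost. Another 4 were gained, at KIF7, FOXF1, GLIS1 and a region assigned to CDON (0% to 60.5%). This CDON region lies 2533 bases outside the gene and overlaps VSIG10L2. The count was 16 (12.6%, against 8.7% of all regions). Expression was not measured in these libraries, so no level of pathway activity can be given.

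**Figure D5:**
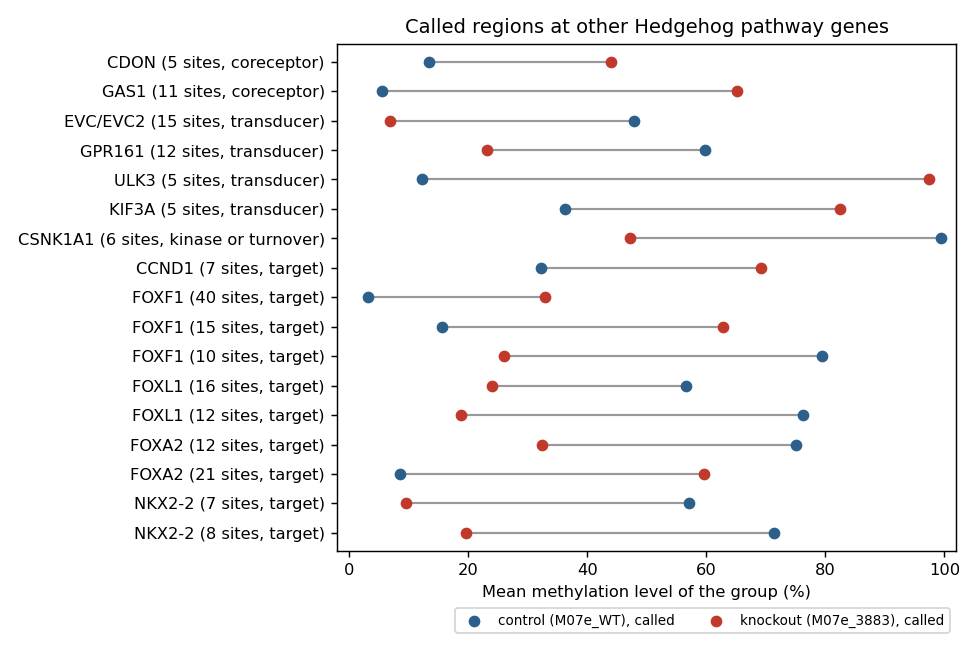
Mean methylation level (%) of control (blue) and knockout (red) in the 17 called regions assigned to other Hedgehog pathway genes, labelled by gene, number of sites and role. In 8 regions the knockout is higher and in 9 lower; the FOXL1 and NKX2-2 regions are all lower.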

How the data were processed

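Reduced representation bisulfite sequencing compared 3 control and 3 DNMT3B knockout libraries of M07e cells. MspI digestion, methylated adapters, bisulfite conversion and PCR were used, per the labels' protocols. Tools in the submitters' processing notes are Bismark, HISAT2, methylKit, Trimmomatic and FastQC, with build hg38 and no versions. The sources used do not say which tool wrote the region table, or whether it is among these. The authors deposited 1 mean methylation percent per group and region, their difference in points, the number of sites, Mann-Whitney and Kolmogorov-Smirnov p-values and a q-value, per the file headers. Depth is unknown, and levels of single libraries were not analysed here.

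Regions were joined to RefSeq spans (GRCh38.p14) with Python 3.11.15 and pandas 2.3.3; no test of a region was added. The interval join and the Benjamini-Hochberg step were tested on simulated data. Starts come from the RefSeq promoter table (250 bases before to 50 after a start), which holds 6 of the 8 genes. The genes, lists, thresholds and rules were chosen with earlier results of these data known. Named are all called regions of the 8 genes, for each gene the region with the most sites and the one nearest a start, those with q under 0.01 and a smaller difference, and called regions of the 36 other genes (1 further gene of that list is not reported here); further regions were named after their values were seen. Alternatives covered the thresholds, adjustment, window, number of sites and means of 0.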

Additional observations from a re-analysis of the deposited data

How the results depend on the processing

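The 6 calls at the 8 Hedgehog genes became 3 at a difference of at least 40 points (2 higher, 1 lower), 3 at a q under 0.001 (3 higher, 0 lower) and 2 with at least 10 sites (1 higher, 1 lower). These are 6.38%, 6.38% and 15.4% of the regions left, beside 3.42%, 3.31% and 16% of all regions. Under the other 8 alternatives the count was between 5 and 8, with 4.12% to 10.5% of all regions called. Benjamini-Hochberg adjustment of the Kolmogorov-Smirnov p gave 5 and of the Mann-Whitney p gave 6, and the GLI2 loss near the far end of the gene was lost under each. No further call appeared within 50 kb of the 8 genes. The 17 calls at the other pathway genes became 11 at a q under 0.001, 10 with gene overlap only and 10 with at least 10 sites. These are 8.66%, 13.7% and 27.0% of the pathway regions left, beside 3.31%, 6.74% and 16% of all regions under the same settings. The median difference of 17.1 points at the 8 genes was 14.3 within 50 kb, 12.2 as a mean weighted by sites, 24.8 with at least 10 sites and 7.56 without means of exactly 0. Deposited differences equalled the difference of the group means within 0.01 points at all 47 regions. No paired analysis was possible because the table has 1 mean per group; for the same reason no library could be left out.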
